A study of Mus musculus with 4 samples.

Results

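Amino acid transporter genes were examined in cultures that the titles call endothelial cells, made from induced pluripotent stem cells (iPSCs) of mice. Such stem cells are body cells that were set back to an embryonic state. The members were all probe sets whose gene symbol begins with Slc1a, Slc3a, Slc7a, Slc36a, Slc38a or Slc43a and a number, apart from Slc7a1, Slc7a2 and Slc7a11. The rule found 80 of the 34945 probe sets that name 1 gene, and these represent 39 of 18193 genes. Of the 39, 7 belong to Slc1a, 2 to Slc3a, 12 to Slc7a, 4 to Slc36a, 9 to Slc38a and 3 to Slc43a. The other 2, Slc7a6os and Slc36a1os, carry an opposite-strand name beside a transporter gene and are no transporters, so they are described apart. The rule rests on gene names, but the families were chosen by someone who knew differences between these arrays, that of Slc7a8 among them, so those differences are given as a description.

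Cells take up amino acids through solute carriers, which differ in their substrates and driving force. Slc1a carriers bring in glutamate or small neutral amino acids with sodium. Many Slc38a carriers bring in glutamine, alanine and other neutral amino acids with sodium, and some Slc36a carriers, such as Slc36a1, use protons. Most Slc7a carriers are light chains that reach the cell surface only when joined to a heavy chain, Slc3a2 or Slc3a1, and exchange one amino acid for another. The uptake of leucine and glutamine feeds the mTORC1 kinase, and a shortage of amino acids raises the transcription factor Atf4, which is known to act on several of these carrier genes.

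The donors were 2 healthy mice (control) and 2 with diet-induced obesity (DIO), all aged 24 weeks, and each gave 1 Affymetrix array. All were grown in an endothelial medium and detached with trypsin before total RNA was taken. The labels give neither strain, sex, diet composition nor the number of iPSC lines per mouse. The p-values therefore measure the spread between these arrays, part of which may be technical. The number after control or DIO is the mouse number of the titles, and every value is a log2 expression level as the authors deposited it.

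The labels list iPSC as the cell type, against the endothelial cells of the titles. Of 18 endothelial marker genes, 15 lay at or below 7.09, the median level of all genes, while 18 of 18 pluripotency genes lay above it. Levels of different probe sets can be compared only roughly, so these counts do not give the share of either cell type. Control 2 stood apart by its epidermal genes, whose 17 measured members averaged 11.77 on that array, against 6.84 on control 1, 7.90 on DIO 1 and 8.87 on DIO 2. The pluripotency genes averaged 9.98 and 9.10 on the control arrays, mouse 1 first, against 10.39 and 9.23 on those of DIO. Probe sets for 18S ribosomal RNA averaged 12.60 and 12.65 on the control arrays against 12.30 and 11.96 on those of DIO, so this measure of the RNA separated the groups. The part of these measures in any difference below was not tested. In bulk RNA, fewer cells of a type and less RNA per cell cannot be told apart.

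The comparison of DIO with control cells asked which carrier genes differ by the donor's obesity. Over the 39 genes, 20 had a higher DIO mean, beside 53.3% of all genes, and 19 a lower one, beside 46.7%, and the median difference, DIO mean minus control mean, was 0.0075 beside 0.02 for all genes. The DIO arrays were both above the 2 controls for 9 genes, where the background over all genes was 21.4%, and below both controls for 13 genes, where it was 17.0%. Together these were 22 of 39, or 56.4%, beside 38.4% of all genes. The median size of the difference, whatever its sign, was 0.23 for the members and 0.16 for all genes. Among the 23 members brighter than the median level, 10 had both DIO arrays below both controls, where the background among equally bright genes was 22.2%, and 5 had both above, where it was 14.7%. Because the families were picked with these differences known, nothing is read from these shares. In limma's fit over all genes with Benjamini-Hochberg adjustment, 0 of the 39 passed an adjusted p of 0.05, and 0% of all genes did, while the smallest adjusted p of a member was 0.728. At an unadjusted p below 0.05 there were 2, Slc7a8 and Slc38a3, both higher in DIO, beside a background of 6.58% of all genes in either direction and 3.26% in that one.

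**Figure D1:**
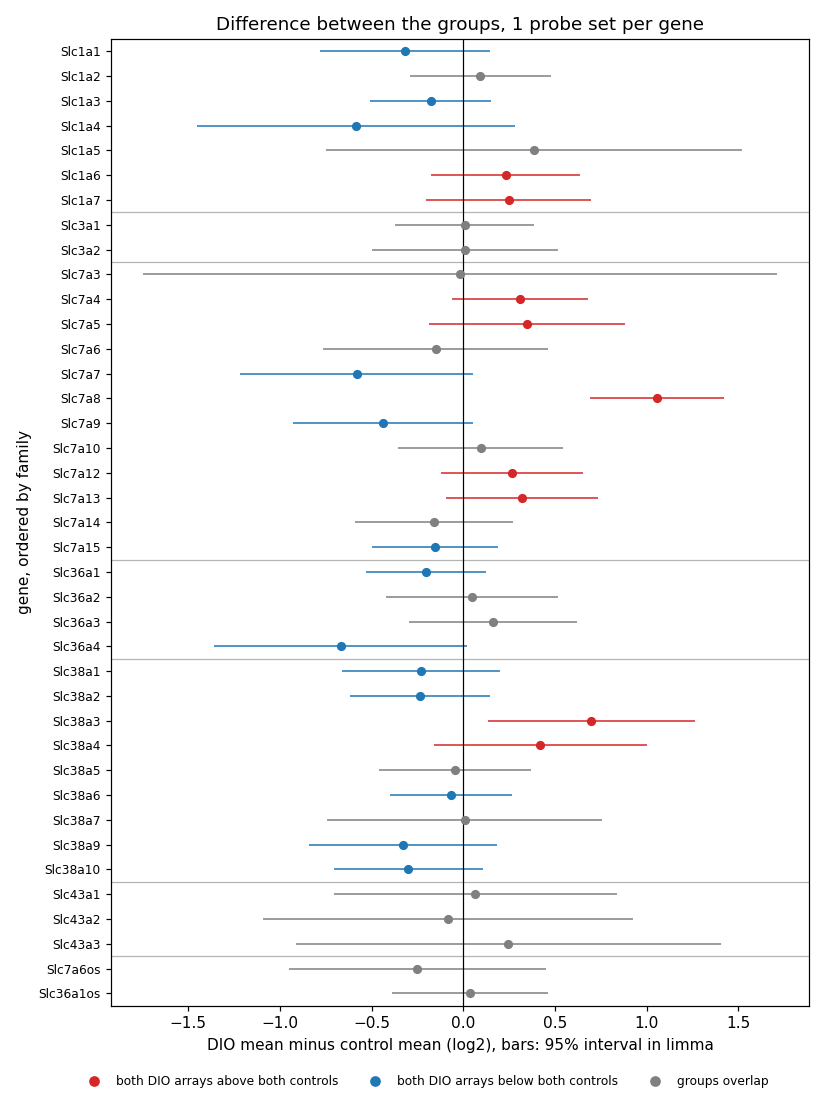
Difference between the groups (DIO mean minus control mean, log2, horizontal axis) for the 39 genes, ordered by family, with bars for the 95% interval of limma and colours for whether the groups overlap. The intervals of Slc7a8 (0.69 to 1.42) and Slc38a3 (0.13 to 1.26) lie wholly above 0, and those of all other genes reach across 0.

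Slc7a8, known as LAT2, is a light chain that exchanges a broad range of neutral amino acids and pairs with Slc3a2. Control 1 and control 2 read 7.34 and 7.28, and the DIO arrays 8.45 and 8.29. The lower DIO array thus lay 0.95 above the higher control, the widest gap among the 39 genes. The difference was 1.06 ± 0.13 (SE of limma, 2 arrays per group), a level 2.08 times that of the controls. It ranked as number 18 among 18193 genes ordered from most higher to most lower in DIO. Here and below, ± gives limma's error, which borrows from the spread of all genes. For a gene with a wide spread it can be smaller than the gene's own error. The difference of Slc7a8 stayed between 0.98 and 1.14 when any 1 array was left out. A single probe set represents the gene, so no other probe set bears on this value.

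Slc7a7, known as y+LAT1, exports cationic amino acids such as arginine in exchange for neutral ones and uses the same heavy chain. It was at 7.64 and 7.20 on the control arrays against 7.03 and 6.66 on those of DIO, so its groups were apart in the opposite direction. The difference was −0.58 ± 0.23, and its second probe set was also lower in DIO, by 0.35 on the log2 scale (5.93 and 5.52 beside 6.39 and 5.75 in the controls, where the groups overlap). Slc7a7 and Slc7a8 lie on chromosome 14 with 15 protein-coding genes between them in the RefSeq annotation of GRCm38.p6. The 250 bases upstream of a start of each gene are shown because these genes lie near each other and differed in opposite directions. The sequences are from RefSeq on that build, from the minus strand, at chr14:54781887-54782136 for Slc7a8 and at chr14:54417703-54417952, which is the second of 5 starts listed, for Slc7a7. Capitals mark the GC box GGGCGG and the core of the amino acid response element, TGATGNAA, on either strand.
Slc7a8: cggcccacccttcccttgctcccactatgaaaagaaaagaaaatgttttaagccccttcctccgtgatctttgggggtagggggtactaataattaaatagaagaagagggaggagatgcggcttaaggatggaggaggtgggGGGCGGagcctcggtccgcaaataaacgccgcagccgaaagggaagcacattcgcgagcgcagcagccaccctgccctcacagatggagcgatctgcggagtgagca
Slc7a7: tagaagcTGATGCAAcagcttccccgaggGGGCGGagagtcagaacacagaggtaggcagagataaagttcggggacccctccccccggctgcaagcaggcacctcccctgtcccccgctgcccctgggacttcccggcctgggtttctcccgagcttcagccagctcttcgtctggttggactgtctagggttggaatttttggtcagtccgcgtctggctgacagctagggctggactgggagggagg

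The Slc7a8 stretch holds 1 GC box and 0 matches to the response element core, while that of Slc7a7 holds 1 of each. It was shown because it is the only one of the 5 Slc7a7 starts with both: the first has the core alone, the third a GC box alone, and the other two neither. These matches describe the letters and say nothing about which factors bind.

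The heavy chain Slc3a2, also called CD98, did not separate the groups. It was at 12.002 and 11.59 on the control arrays against 11.82 and 11.80 on those of DIO, a difference of 0.01 ± 0.19 with a 95% interval from −0.50 to 0.52. Both DIO arrays lay between the 2 controls. The other partners of Slc3a2 differed in direction. Slc7a5, or LAT1, the main carrier of leucine into growing cells, was at 10.93 and 10.60 on the control arrays against 10.96 and 11.27 on those of DIO. Its groups were apart by 0.04 only, between control 1 and DIO 1, and the difference was 0.35 ± 0.19. Slc7a6, or y+LAT2, which has the same kind of exchange as Slc7a7, was at 7.51 and 7.99 on the control arrays against 7.72 and 7.47 on those of DIO. Its difference of −0.15 ± 0.22 became 0.09 without control 2, and its other probe set differed by 0.05. Slc7a10, a carrier of small neutral amino acids including D-serine, was dim, at 3.92 and 4.02 beside 3.91 and 4.22, with overlapping groups. Of the 5 members known as its light chains, 3 thus had a higher and 2 a lower DIO mean.

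The kidney and gut heavy chain Slc3a1 was dim on every array, at 4.09 and 3.90 on the control arrays against 4.05 and 3.96 on those of DIO, a difference of 0.01 ± 0.14 that was −0.05 after quantile normalization. Its partner Slc7a9, the cystine and cationic amino acid exchanger of the kidney, was at 5.20 and 5.57 on the control arrays against 5.01 and 4.90 on those of DIO, with both DIO arrays lower and a difference of −0.44 ± 0.18. Slc7a13, another light chain of kidney, differed by 0.32 ± 0.15, but its second probe set by −0.01. Slc7a12 differed by 0.27 ± 0.14 and Slc7a15 by −0.15 ± 0.13, with levels between 3.11 and 4.22. No detection calls were used, so how far such dim probe sets lie above background is not known.

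The remaining Slc7a members are of the cationic type, which needs no heavy chain. Slc7a3, which carries arginine and lysine, read 9.63 on control 1, 8.32 on control 2, 9.57 on DIO 1 and 8.35 on DIO 2. Mouse 1 of each group was high and mouse 2 low, so the groups overlapped almost fully. The difference was −0.02 ± 0.63, which turned to 0.07 after quantile normalization, and its 95% interval ran from −1.75 to 1.71. Among the 9096 genes above the median level, 6281 were lower in control 2 than in control 1, and 5185 lower in DIO 2 than in DIO 1. The pluripotency genes, all 18 above that level, were lower in control 2 than in control 1 in 17 cases. They were also lower in DIO 2 than in DIO 1 in 17 of 18. Their median steps were −1.01 and −1.31, beside −1.31 and −1.22 for Slc7a3, and their part in its levels was not tested. Slc7a4, a related protein without settled substrates, differed by 0.31 ± 0.14, from 6.88 and 7.06 to 7.29 and 7.27. Its other probe sets differed by −0.06 and 0.08. Slc7a14, a lysosomal relative, differed by −0.16 ± 0.16, and its second probe set by 0.27.

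**Figure D2:**
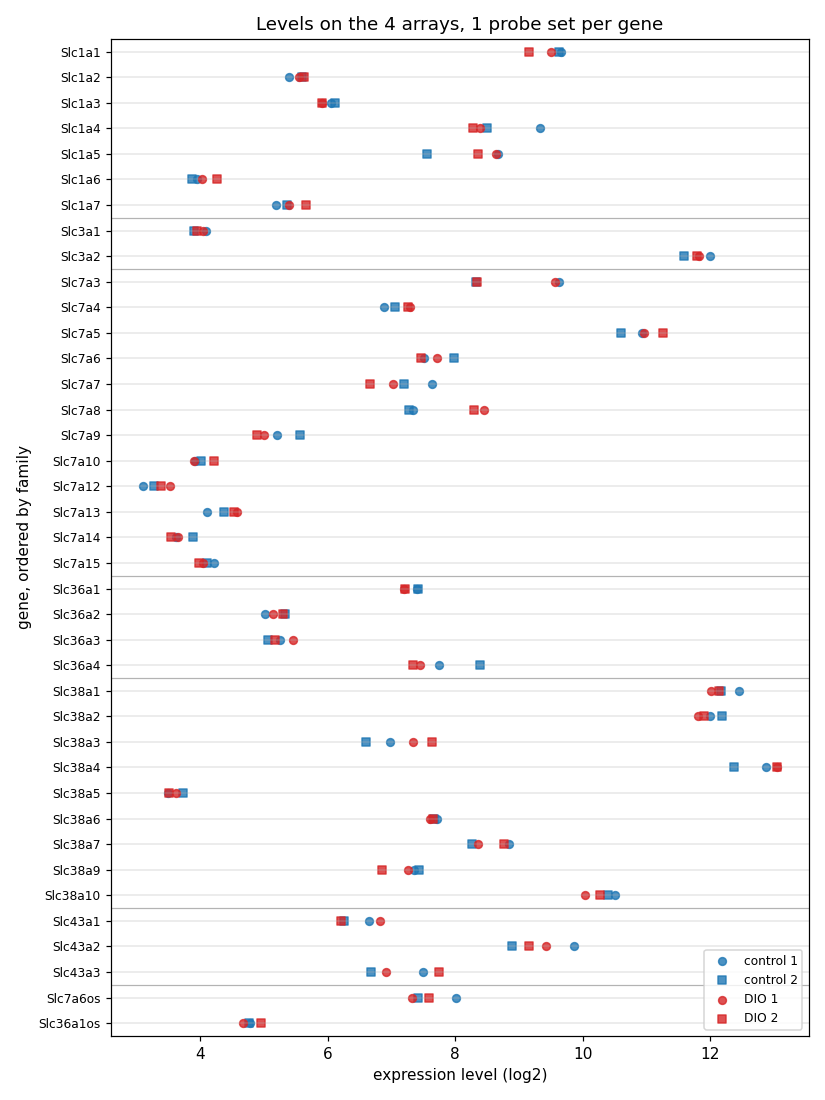
Log2 expression level (horizontal axis) of the 39 genes on each of the 4 arrays, by family, with controls in blue, DIO in red, mouse 1 as circles and mouse 2 as squares. Slc7a8 shows both DIO arrays (8.45 and 8.29) clear of both controls (7.34 and 7.28), while for Slc7a3 the squares (8.32 and 8.35) lie apart from the circles (9.63 and 9.57) in both groups.

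In the Slc1a family, 4 of 7 genes had a higher and 3 a lower DIO mean, with a median of 0.09. Slc1a1, or EAAT3, takes up glutamate, aspartate and cysteine. It was at 9.67 and 9.64 on the control arrays against 9.51 and 9.16 on those of DIO, a difference of −0.32 ± 0.17. Its other 2 probe sets were lower as well, by differences of −0.65 and −0.61, so the brightest probe set gave the smallest of the 3. For the probe set at −0.65, the levels were 8.20 and 8.16 on the control arrays against 7.63 and 7.42 on those of DIO, again without overlap.

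Slc1a4 and Slc1a5 are the neutral amino acid exchangers ASCT1 and ASCT2, of which the second is a main entry route for glutamine. Slc1a4 was at 9.34 and 8.50 on the control arrays against 8.39 and 8.28 on those of DIO. The DIO arrays lay below both controls, but by only 0.11 below control 2. The difference was −0.58 ± 0.32, being −1.002 against control 1 and −0.16 against control 2. Its other probe sets were at −0.35 and −0.41, both with overlapping groups. Slc1a5 was at 8.67 and 7.56 on the control arrays against 8.64 and 8.36 on those of DIO, with control 2 low and the other 3 arrays close together. Its difference of 0.38 ± 0.41 became −0.17 without control 2, and its dimmer probe set differed by −0.05. Both genes were lower in control 2 than in control 1, by steps of −0.84 and −1.11. So were 17 of the 23 members above the median level, beside 6281 of all 9096 genes above it.

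The brain and retina glutamate carriers were dim. Slc1a2 and Slc1a3, of glial cells, differed by 0.09 ± 0.14 and −0.18 ± 0.12, and their 5 and 6 probe sets pointed in both directions, 4 of them higher in each case. Among the probe sets used, those of Slc1a3 and Slc38a1 are of types that can bind transcripts of other genes, as is the second of Slc7a7. Slc1a6, of Purkinje cells, differed by 0.23 ± 0.15 and Slc1a7, of the retina, by 0.25 ± 0.16, with both DIO arrays above both controls by 0.07 and 0.02.

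Of the 9 Slc38a genes, 3 had a higher and 6 a lower DIO mean, with both DIO arrays above both controls for 2 and below for 5. Over all genes these shares were 21.4% and 17.0%, and among genes above the median level, where 8 of the 9 lay, they were 14.7% and 22.2%. The family divides into system A carriers (Slc38a1, Slc38a2 and Slc38a4), which take up small neutral amino acids, system N carriers (Slc38a3 and Slc38a5), which also exchange protons and prefer glutamine and histidine, and others, several of them on lysosomes. Slc38a1 was at 12.45 and 12.17 on the control arrays against 12.02 and 12.14 on those of DIO, a difference of −0.23 ± 0.16, with a gap of 0.04 between DIO 2 and control 2. Its second probe set differed by −0.33. Slc38a2, the carrier that amino acid shortage is known to induce, was at 11.99 and 12.18 on the control arrays against 11.81 and 11.90 on those of DIO, a difference of −0.24 ± 0.14. Its other 2 probe sets were at −0.52 and −0.03, the latter from a dim one near 5.89.

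Slc38a4, an imprinted gene expressed from the paternal copy in many mouse tissues, was at 12.88 and 12.37 in the controls and 13.04 on both DIO arrays. The difference was 0.42 ± 0.21, being 0.17 against control 1 and 0.67 against control 2. Its second probe set was higher as well, at 11.59 and 11.88 in DIO beside 11.08 and 11.24, a difference of 0.57. Slc38a1, Slc38a2 and Slc38a4 are direct neighbours on chromosome 15, with 0 protein-coding genes between them in the RefSeq annotation. The first 2 were thus lower in DIO and the third higher, each without overlap of the groups.

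Slc38a3, or SNAT3, the glutamine carrier of liver, kidney and brain astrocytes, was at 6.98 and 6.60 on the control arrays against 7.33 and 7.64 on those of DIO. Both DIO arrays were higher, with a gap of 0.36, and the difference was 0.70 ± 0.21, a level 1.62 times that of the controls. It was larger in size than for 95.7% of all genes and stayed between 0.51 and 0.89 when any 1 array was left out. Its second probe set, at 4.94 to 5.31, differed by 0.22. The other system N gene, Slc38a5, was dim, at 3.49 and 3.73 beside 3.63 and 3.51.

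Slc38a9 is the lysosomal arginine sensor that signals to mTORC1. It was at 7.35 and 7.43 on the control arrays against 7.27 and 6.86 on those of DIO, a difference of −0.33 ± 0.19. Of its 7 probe sets, 5 were lower and 2 higher in DIO, and the second brightest differed by 0.37, so they do not give 1 direction. Slc38a10 differed by −0.30 ± 0.15, from 10.50 and 10.40 to 10.04 and 10.27. Its 3 brightest probe sets were all lower in DIO and its 4 dimmest all higher. Slc38a7, which exports glutamine from lysosomes, differed by 0.01 ± 0.27 with control 1 and DIO 2 high. Slc38a6 differed by −0.07 ± 0.12, which became 0.06 after quantile normalization.

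Of the 4 Slc36a genes, the pair that lay above the median level of all genes was lower in DIO. Slc36a4, a carrier with high affinity for proline and tryptophan, was at 7.75 and 8.38 on the control arrays against 7.46 and 7.34 on those of DIO. Both DIO arrays lay below both controls by at least 0.30, and the difference was −0.67 ± 0.25, the lowest of the 39. It was −0.35 against control 1 and −0.98 against control 2. Slc36a1, or PAT1, which moves small amino acids with protons across lysosomal and surface membranes, was at 7.40 and 7.41 on the control arrays against 7.20 and 7.21 on those of DIO. The arrays of each group differed by 0.01, and the difference between groups was −0.20 ± 0.12, where limma's error borrows from the spread of all genes. Slc36a3, Slc36a2 and Slc36a1 follow one another in that order on chromosome 11. Slc36a2 and Slc36a3 were dimmer, with levels of 5.02 to 5.46, overlapping groups and differences of 0.05 and 0.16.

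In the Slc43a family, all 3 genes had overlapping groups. Slc43a1 and Slc43a2 are the leucine and phenylalanine carriers LAT3 and LAT4, and Slc43a3 is a carrier of purine bases rather than of amino acids. Slc43a2 was at 9.86 and 8.89 on the control arrays against 9.43 and 9.16 on those of DIO, with both DIO arrays between the controls. Its difference of −0.08 ± 0.37 was 0.01 after centring each array on the median of all genes, and its other probe sets differed by less than 0.01. Slc43a3 was at 7.49 and 6.68 on the control arrays against 6.91 and 7.75 on those of DIO, a difference of 0.25 ± 0.42, with DIO 2 and control 1 high. Slc43a1 differed by 0.07 ± 0.28. Control 2 was lower than control 1 in all 3, by a median step of −0.81, beside 11300 of 18193 genes and a median step of −0.09. Of the opposite-strand genes, Slc7a6os was at 8.01 and 7.41 on the control arrays against 7.33 and 7.59 on those of DIO, and Slc36a1os was at 4.78 and 4.77 beside 4.67 and 4.95, both with overlapping groups.

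More than 1 probe set was present for 19 of the 39 genes, and for 9 of these all probe sets gave the same direction. The 9 were Slc1a1, Slc1a4, Slc7a7, Slc38a1, Slc38a2, Slc38a6 and Slc7a6os, all lower in DIO, and Slc38a3 and Slc38a4, both higher. Probe sets of 1 gene were read from the same RNA, so they check the probe and not the mouse. Over all 80 probe sets, 39 had a higher DIO mean, beside 51.6% of the probe sets that name 1 gene. The DIO arrays were both above the 2 controls for 18, beside a background of 21.4%, and below for 23, beside 18.7%.

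**Figure D3:**
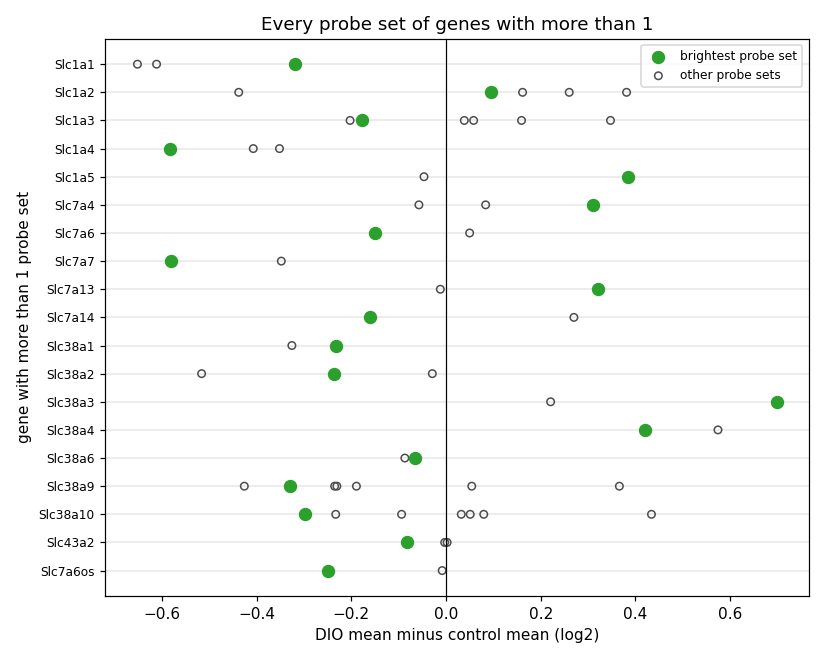
Difference between the groups (DIO mean minus control mean, log2, horizontal axis) for every probe set of the 19 genes with more than 1, with the brightest probe set of a gene filled. The 3 probe sets of Slc1a1 (−0.32, −0.65 and −0.61) and the 2 of Slc38a4 (0.42 and 0.57) each lie on 1 side of 0, while those of Slc38a9 lie on both.

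The spread between mice of a group set the precision. The size of the step from control 1 to control 2 had a median of 0.26 over the 39 genes, and that from DIO 1 to DIO 2 a median of 0.16, beside 0.24 and 0.14 for all genes. The typical difference between groups, 0.23, lay between these 2 steps of the members. It is a difference of 2-array means, which varies less than a step between single arrays, so the sizes are not directly comparable. The widest step between controls was that of Slc7a3, at −1.31, followed by Slc1a5, at −1.11, Slc43a2, at −0.97, and Slc1a4, at −0.84. Between the DIO arrays Slc7a3 again had the widest step, at −1.22, followed by Slc43a3, at 0.84, and Slc43a1, at −0.62. Slc43a3 stepped down from control 1 to control 2 and up from DIO 1 to DIO 2.

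**Figure D4:**
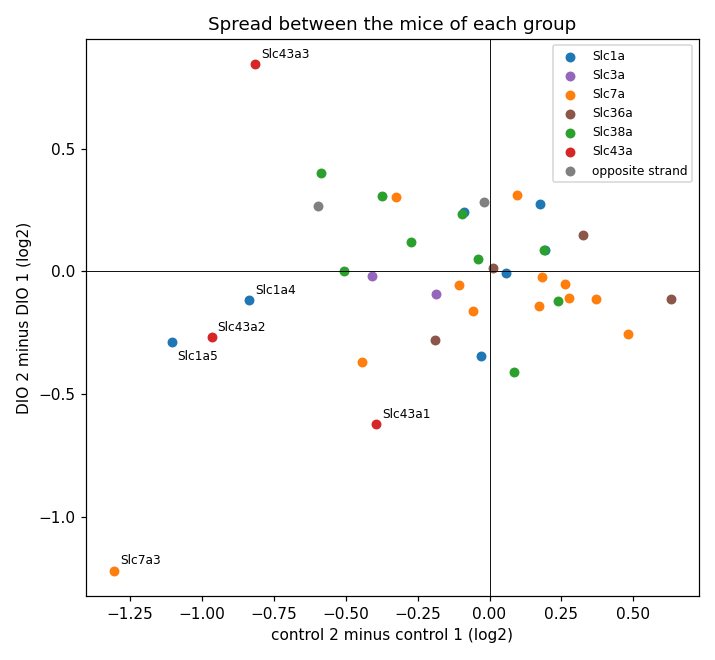
Step between the 2 mice of each group for the 39 genes, control 2 minus control 1 (log2, horizontal axis) against DIO 2 minus DIO 1 (log2, vertical axis), coloured by family. Slc7a3 lies far to the lower left (−1.31 and −1.22), and Slc43a3 at the upper left (−0.81 and 0.84).

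Upstream sequence was found in RefSeq for 29 of the 39 genes, with 39 starts in all. The 250 bases before each start were searched on both strands. None was found for Slc1a5, Slc7a3, Slc7a4, Slc7a5, Slc7a12, Slc7a13, Slc36a2, Slc38a1, Slc38a3 and Slc43a3. Sequence outside these stretches, such as introns, was not read, so a gene without a match here can hold one elsewhere. The response element core TGATGNAA was in 2 of the 39 stretches, or 5.13%, beside 3.45% of 32851 stretches of all genes, and both belong to Slc7a7. The E-box CACGTG, a letter pattern that Myc and related factors bind, was in 7 stretches of 7 genes, or 17.9%, beside 6.02%. The genes were Slc43a1, Slc7a14, Slc1a7, Slc38a7, Slc1a6, Slc36a1 and Slc38a5, of which only Slc36a1 and Slc38a7 lay above the median level of all genes. GC boxes were in 24 stretches, or 61.5%, beside 32.7%. The members' stretches were also richer in CpG, with a median of 10 per stretch beside 6, and both CACGTG and GGGCGG contain that pair of letters. Starts of 1 gene can overlap, so these stretches are not independent.

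Other genes of amino acid handling were read from lists of related genes, and 0 of their members passed the adjusted threshold in limma. In the list of the amino acid stress response, 16 of 23 measured genes had a lower DIO mean and 7 a higher one, with a median of −0.18. The list also holds genes of other stresses, so it is no measure of amino acid shortage alone. Taken against control 1 alone the median was −0.24, and against control 2 alone −0.037. Control 2 had the lower level of the pair for 19 of the 23 genes, beside 6281 of the 9096 genes above the median level. Both DIO arrays were below both controls for 10 of the 23 and above for 3. Of these genes 22 lay above the median level, where the shares over all genes were 22.2% below and 14.7% above. Atf4 itself was at 11.99 and 11.62 on the control arrays against 11.57 and 11.61 on those of DIO, a difference of −0.21 ± 0.18. The higher DIO array thus lay just under control 2. These are RNA levels, and the Atf4 protein was not measured. Ddit3, also known as CHOP, a factor induced by stress, was at 10.11 and 9.94 on the control arrays against 9.36 and 9.34 on those of DIO, a difference of −0.67 ± 0.13. Nupr1 and Chac1, both induced under stress, differed by −0.66 ± 0.39 and −0.66 ± 0.25, but Nupr1 by −0.15 without control 2 and Chac1 by −0.37 without DIO 2. Phgdh, the first enzyme of serine synthesis and in the same list, went the other way at 10.74 and 10.62 beside 11.25 and 11.21. Asns, Eif2ak4 and Aldh18a1 also had a higher DIO mean, by 0.18 ± 0.31, 0.26 ± 0.15 and 0.40 ± 0.19. Eif2ak3 had a lower one, with a difference of −0.63 ± 0.15. At an unadjusted p below 0.05 in limma, 3 members of this list were found, beside 6.58% of all genes. Of these, 2 were lower in DIO, Ddit3 and Eif2ak3, and 1 was higher, Phgdh. By the same measure 1 of 20 carriers of other families was found, 0 of 24 genes of the sensing list and 0 of 19 synthetases, all described next. Atf4, Phgdh, Asns, Eif2ak4, Aldh18a1 and Eif2ak3 were named after their values were seen.

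Among 24 measured genes of amino acid sensing to mTORC1, 11 were higher and 13 lower, with a median of −0.06. Castor2, of the arginine sensor family, read 8.22 and 9.13 on the control arrays and 7.83 and 7.97 on those of DIO, a difference of −0.78 ± 0.34. It was −0.32 without control 2 and −0.44 with its probe sets averaged. Without control 1 it was −1.24, with an adjusted p in limma of 0.0467, in the fit where 483 of 18193 genes passed. Of the sestrins, which sense leucine or restrain mTORC1, Sesn3 read 7.92 and 8.56 beside 7.61 on both DIO arrays, a difference of −0.63 ± 0.25 that was −0.31 without control 2. Sesn1 differed by −0.43 ± 0.17, by −0.26 without DIO 2 and by only −0.063 when averaged over its probe sets. Of 20 carriers from other families, 9 were higher and 11 lower. Ctns, which exports cystine from lysosomes, differed by −0.63 ± 0.24, and by −0.33 without control 1. The mitochondrial ornithine carrier Slc25a15 differed by 0.42 ± 0.16. The aromatic amino acid carrier Slc16a10 differed by −0.37 ± 0.18, but by −0.18 without control 1 and by −0.047 when averaged over its probe sets. Of 19 measured cytosolic aminoacyl-tRNA synthetases, which load amino acids onto tRNA, 9 were higher and 10 lower, with a median of −0.01. Kars and Iars, for lysine and isoleucine, differed by 0.33 ± 0.23 and 0.24 ± 0.18, and by 0.057 and 0.051 without control 2. Wars, for tryptophan, differed by −0.17 ± 0.13, and by −0.074 with its probe sets averaged. In control 2, 18 of these 19 synthetases were lower than in control 1, beside 6281 of the 9096 genes above the median level, where all 19 lay.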

How the data were processed

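Total RNA of 4 cultures, 2 from control and 2 from DIO mice, was labelled with biotin and hybridized to Affymetrix arrays, per the labels' protocols. The authors deposited 1 table of log2 expression levels, with a normalization and summary method not given in the sources used here. A log2 scale was read from the values, which ran from 2.59 to 14.56, above the 11.09 that a natural log of a 16-bit signal can reach. Column medians were 5.61 to 5.65. No depth applies, and the number of arrays limits the precision.

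Of 45101 probe sets, 64 manufacturer controls were left out of the tests. Names came from the platform annotation: 34945 probe sets had 1 symbol, 932 had several symbols and 9160 no entry. Entrez numbers of 34741 matched RefSeq on GRCm38.p6, and 0 changed symbol. Each gene was represented by its brightest probe set on average, with no filter on dim ones. The 2 groups were fitted with lmFit and eBayes of limma 3.58.1 in R 4.3.3, with 2-sided p-values and Benjamini-Hochberg adjustment over all genes. The procedure was run on simulated data with independent noise for each gene. Such data lack shifts shared by many genes of 1 array, like those of control 2, so the run cannot show how the fit handles them. With 2 arrays against 2, the smallest p of an exact permutation test is 0.333.

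Genes were given with all 4 values if both DIO arrays lay on 1 side of both controls with a difference of 0.5 or more, if they were among the 2 brightest of a family, or if they were Slc7a8, Slc7a5, Slc7a6, Slc3a2, Slc1a5 or Slc38a2. Values of further members were added after they were seen. Of each pathway list, up to 3 genes with the widest difference among those with groups apart were named. Members and lists were chosen with earlier results of these data known. Alternatives were quantile normalization, centring, leaving out the dimmest 40% of genes, a trended and robust eBayes, averaging or testing singly the probe sets of a gene, the mouse number as a block and leaving out each array. Centring over genes was added after the data were seen.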

Additional observations from a re-analysis of the deposited data

How the results depend on the processing

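No alternative brought a member past the adjusted threshold in limma. The median difference of the members, 0.0075, was 0.10 after centring each array over genes, which moved the median of all genes to 0.11 and the unadjusted calls from 594 higher and 604 lower to 1072 and 327, and it was −0.082 without the dimmest genes, where 25 members were tested. Leaving out 1 array gave members' medians from −0.13 (without control 2) to 0.048 (without control 1). Over all genes 0 to 483 passed, all 483 without control 1, where 34 were higher. Unadjusted calls were 1198 on all arrays, 3689 without control 1, 2265 without control 2, 295 without DIO 1, 171 without DIO 2, 607 without the dimmest genes and 2811 over probe sets. With the mouse number as a replicate block the calls were 0 over all genes and 982 unadjusted. The numbers name different mice, and deviations of equally numbered arrays correlated at 0.33 over genes. Under a scaling 6 members changed sign: Slc3a1 (−0.052), Slc7a3 (0.067), Slc36a1os (−0.0039) and Slc38a6 (0.058) after quantile normalization, Slc7a3 (0.010) after centring over probe sets, and Slc7a3 (0.075), Slc38a5 (0.048), Slc38a6 (0.027) and Slc43a2 (0.010) after centring over genes. With probe sets averaged, Slc1a3 was at 0.037 and Slc7a14 at 0.055. For the 22 members whose groups do not overlap, the sign cannot turn when 1 array is left out, so its holding there was fixed in advance. It held in every such fit for 24 of the 39 members, these 22 among them, and turned for 15. Their ranges were −0.0020 to 0.19 for Slc1a2, −0.17 to 0.94 for Slc1a5, −0.086 to 0.10 for Slc3a1, −0.19 to 0.22 for Slc3a2, −0.67 to 0.64 for Slc7a3, −0.39 to 0.090 for Slc7a6, −0.55 to 0.048 for Slc7a6os, −0.061 to 0.25 for Slc7a10, −0.10 to 0.18 for Slc36a1os, −0.12 to 0.21 for Slc36a2, −0.16 to 0.075 for Slc38a5, −0.28 to 0.30 for Slc38a7, −0.24 to 0.38 for Slc43a1, −0.57 to 0.40 for Slc43a2 and −0.18 to 0.67 for Slc43a3. In these fits the lone array of a group is assumed to vary like the others. The cause of these moves was not tested.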
